A study of Mus musculus with 5 samples.

Results

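A rare fraction of mouse synovial sarcoma (SyS) cells carried transcripts of *Sst*, which encodes the peptide hormone somatostatin. The cells were chosen by measured values. A cell entered the SyS gate with at least 750 detected genes, at most 25% mitochondrial transcripts, at least 3 of the 8 genes *Adgrb3*, *Sox11*, *Tle1*, *Hmga2*, *Reln*, *Nxph1*, *Epha5* and *Gpc3*, and at most 1 transcript in sum of *Ptprc*, *Cdh5*, *Csf1r* and *Rgs5*, which mark immune, endothelial, myeloid and mural cells. It was called Sst-expressing with at least 2 *Sst* transcripts, counted as unique molecular identifiers (UMIs, 1 for each captured RNA molecule). This gave 664 Sst-expressing cells, 2.16% of 30700 SyS gate cells and part of 51670 cells in all. The level and the share of *Sst* are therefore a description and carry no test. *Lgr5*, *Trpm3*, *Tenm3* and *Fst* were proposed as markers of these cells with results of these data in view, so they too are described without a p-value.

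The 5 tumours were all driven by the human *SS18::SSX2* fusion of the *hSS2* allele, which was induced at 8 days of life by injecting TATCre into the limb. Tumours were taken at morbidity and dissociated, red cells were lysed, and single-cell 3′ libraries were made. By the histology in their labels 2 were biphasic (BP), 1 was monophasic (MP), 1 was mixed monophasic and biphasic (MP+BP) and 1 was mixed poorly differentiated and monophasic (PD+MP), so 3 of the 4 labels had 1 tumour. The 2 BP labels share their leading number and whether both tumours grew in 1 animal was not stated. TATCre acts on whichever cells it enters, so the cell of origin is not defined by a promoter, and no tumour without the fusion was part of the comparison. Strain and sex were not given in the labels.

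Somatostatin is made by delta cells of the pancreas and gut and by a class of inhibitory neurons, and acts through the G protein-coupled receptors Sstr1 to Sstr5 to restrain secretion and growth. Its gene is a classical target of cAMP signalling, because the factor CREB binds a cAMP response element (CRE) in its promoter. *Lgr5* encodes a receptor for R-spondins and is a Wnt target gene, *Trpm3* a heat-activated cation channel, *Tenm3* a teneurin that binds latrophilins between cells, and *Fst* follistatin, a secreted protein that captures activins.

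In genome build GRCm38 and the GENCODE M21 annotation, *Sst* lies at chr16:23889573-23890958 on the minus strand. *Lgr5* lies at chr10:115450311-115587780 (minus), *Trpm3* at chr19:22139046-22995410 (plus), *Tenm3* at chr8:48227682-48843951 (minus) and *Fst* at chr13:114452290-114458951 (minus). The 250 bases upstream of the RefSeq transcription start (build GRCm38.p6) are shown for *Sst* because its promoter is the textbook example of a CRE, and for *Cartpt* and *Flt1* because both rose in Sst-expressing cells and hold the same letters. Capitals mark TGACGTCA, which reads alike on both strands. The windows are chr16:23890845-23891094 (minus), chr13:99900684-99900933 (minus) and chr5:147726012-147726261 (minus). For *Sst* and *Cartpt* the GENCODE gene begins upstream of the RefSeq start. Part of the *Sst* window, with its TGACGTCA, and all of the *Cartpt* window thus lie within the GENCODE gene.
Sst: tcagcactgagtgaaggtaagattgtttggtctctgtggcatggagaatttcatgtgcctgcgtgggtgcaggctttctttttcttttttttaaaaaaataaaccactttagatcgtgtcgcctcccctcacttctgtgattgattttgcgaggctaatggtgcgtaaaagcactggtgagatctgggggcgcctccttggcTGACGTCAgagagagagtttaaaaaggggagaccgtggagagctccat
Cartpt: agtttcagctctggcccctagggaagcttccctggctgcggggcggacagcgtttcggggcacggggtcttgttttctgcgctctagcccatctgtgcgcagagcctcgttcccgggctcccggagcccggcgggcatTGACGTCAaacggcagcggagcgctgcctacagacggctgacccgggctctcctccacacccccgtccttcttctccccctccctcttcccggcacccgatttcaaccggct
Flt1: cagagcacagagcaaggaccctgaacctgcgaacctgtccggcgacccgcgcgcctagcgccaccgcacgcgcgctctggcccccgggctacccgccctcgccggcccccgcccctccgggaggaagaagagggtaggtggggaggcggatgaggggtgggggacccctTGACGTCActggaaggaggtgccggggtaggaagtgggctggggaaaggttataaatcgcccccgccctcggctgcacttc
In *Sst* the CRE began 48 bases before the start, in *Cartpt* 112 bases and in *Flt1* 81 bases. The letters TGACGTCA occurred in 1.55% of 32851 such windows, and in 318 of 10033 genes tested below (3.17%). Of 121 genes that were higher in Sst-expressing cells and had a window, 5 held them (4.13%), and of 71 that were lower, 0. The 5 were *Ltbp1*, *Cartpt*, *Flt1*, *Arl5b* and *Tmem59l*, named after the match was seen, and their share was near that of all genes tested.

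Sst-expressing cells occurred in every tumour, at shares that differed more than 10-fold between them. BP replicate 1 had 35 among 4200 SyS gate cells (0.833%, exact 95% binomial interval 0.581 to 1.16%). BP replicate 2 had 301 of 7695 (3.91%, 3.49 to 4.37%), and MP had 12 of 5215 (0.230%, 0.119 to 0.402%). MP+BP had 272 of 6896 (3.94%, 3.50 to 4.43%), and PD+MP had 44 of 6694 (0.657%, 0.478 to 0.881%). BP replicate 2 and MP+BP thus held 573 of the 664 cells (86.3%), and the 2 BP tumours, which share a label, lay outside each other's intervals. The intervals cover counting error only. With every cell thinned to 3000 UMIs, which left out 320 to 1006 shallower cells a tumour, the shares were 0.593%, 3.35%, 0.129%, 3.00% and 0.475% in the same order of tumours.

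*Sst* was abundant in many of these cells, all of which had 2 or more UMIs by the rule. The median cell had 14 *Sst* UMIs and the highest 415, and 261 cells had 20 or more. In BP replicate 1 the median was 15 with a maximum of 120, in BP replicate 2 it was 18 with 314, and in MP+BP it was 13 with 415. The other two tumours were lower, with a median of 7.5 and a maximum of 19 in MP and a median of 6 and a maximum of 95 in PD+MP. Summed over cells, *Sst* reached 1320, 2180, 352, 1720 and 1070 counts per 1000000 UMIs (CPM) in the tumours, ordered as BP replicate 1, BP replicate 2, MP, the mixed MP+BP and the mixed PD+MP. The 664 cells, 2.16% of the gate, held 16175 of 19789 *Sst* UMIs found in all cells (81.7%). They were chosen by *Sst*, so this share follows in large part from the rule.

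**Figure D1:**
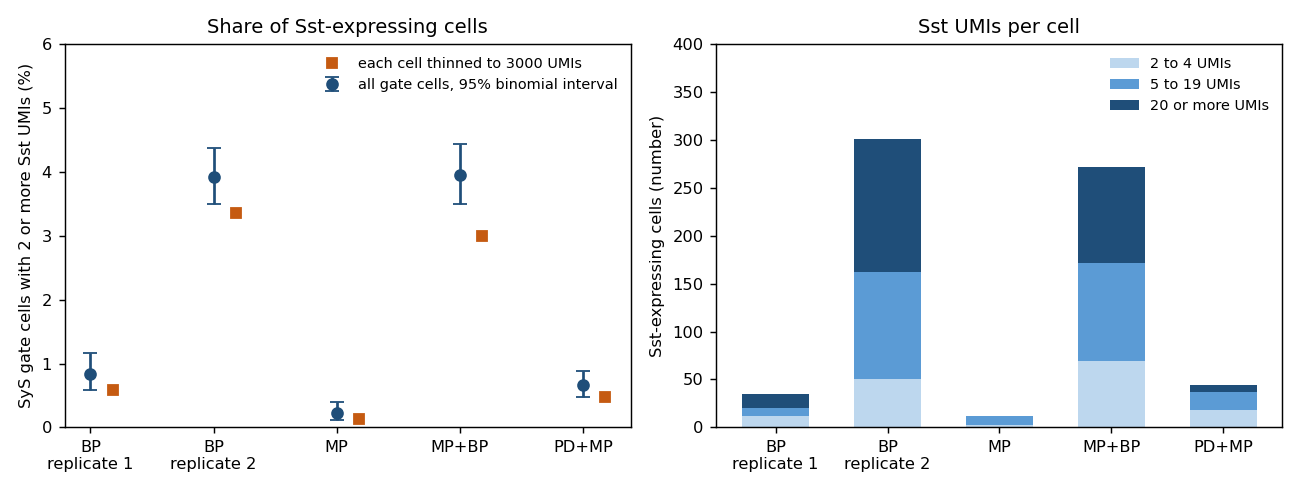
Left, percent of SyS gate cells with 2 or more Sst UMIs in each tumour, with exact 95% binomial intervals (circles) and after thinning each cell to 3000 UMIs (squares); right, the number of Sst-expressing cells by their Sst UMIs. BP replicate 2 (3.91%) and MP+BP (3.94%) stand above the other 3 tumours (0.230 to 0.833%), and MP has no cell with 20 or more Sst UMIs.

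Cells just outside the threshold, with exactly 1 *Sst* UMI, numbered 380, and those just inside, with exactly 2, numbered 65. The share of gate cells with exactly 1 UMI was 2.12% in BP replicate 2 and 2.42% in MP+BP, at median depths of 9595 and 7711 UMIs. In the same tumours 2.52% and 1.82% of immune cells, which should lack *Sst*, carried at least 1 UMI at median depths of 5126.5 and 5092. The rule set the threshold at 2 UMIs, so cells with a single UMI were not members. Whether their UMI is background was not tested. Across the 5 tumours 0 of 3040 immune cells had 2 or more *Sst* UMIs, which allows a share of up to 0.0987%. Among endothelial cells 3 of 2035 had 2 or more, and among mural cells 2 of 1427. In BP replicate 2, *Tenm3* stood at 88.5 CPM in matched cells without *Sst*, at 177 in cells with 1 UMI and at 664 in the 19 cells with 2. *Ecrg4* went the other way there, with 526, 457 and 14.7 CPM.

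Each Sst-expressing cell was paired with 1 Sst-negative gate cell of its own tumour whose total UMIs differed by at most 10%, and all 664 found a partner. Median totals were 12505 UMIs in both classes in BP replicate 1, 8576 in both in BP replicate 2, 10339.5 against 10341.5 in MP, 9781.5 against 9780 in MP+BP, and 7726 against 7726.5 in PD+MP. The label of tumour cell was checked with *EGFP*, a transgene sequence counted among the features and not used by the rule. Sst-expressing cells had 37.9, 40.6, 66.0, 31.8 and 37.5 *EGFP* CPM in the tumours in the order above, and matched cells had 39.5, 32.7, 36.7, 32.8 and 39.6. Immune, endothelial and mural cells had 0 to 2.79. *EGFP* was thus found in Sst-expressing cells and their partners at levels far above those of the other cell types, and did not pass the test between the pair (log2 fold change 0.07 ± 0.18 SE, adjusted p = 0.903, edgeR's quasi-likelihood test with Benjamini-Hochberg adjustment).

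Among 11 other SyS markers tested, 1 was higher (*Cbln4*, a secreted synapse organizer) and 1 lower (*Nnat*, an imprinted gene of neural tissue), and the median log2 fold change was -0.27. In the test across all genes described below, 1.26% of genes were higher and 0.718% lower. Within the gate list, which the rule used and which carries no test, *Adgrb3* stood at 588 against 2440 CPM in BP replicate 1 and 1020 against 3560 in BP replicate 2. *Gpc3* was at 302 against 1230 and at 596 against 1080 in the same tumours. *Epha5* (179 against 559 and 204 against 496) and *Hmga2* (479 against 627 and 337 against 696) were lower there as well. *Sox11* and *Tle1* lay closer to their partners, with 120 against 141 and 171 against 228 in BP replicate 1. *Nxph1* (142 against 90.1 and 155 against 131) and *Reln* (206 against 199 and 315 against 154) were higher in both BP tumours. The median cell had 5 of the 8 gate genes in BP replicate 2 against 6 in its partners, so cells of this kind sat nearer the edge of the gate in the BP tumours.

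Of the 4 proposed markers, *Fst* and *Tenm3* stood higher in Sst-expressing cells of all 5 tumours, and *Lgr5* and *Trpm3* did not. *Fst* was at 675 CPM in Sst-expressing cells against 234 in matched cells in BP replicate 1, and at 399 against 77.0 in BP replicate 2. In PD+MP it was at 440 against 192, and in MP+BP it was 2.30 times the 205 of matched cells. In MP, with 12 cells in each class, the values were 106 and 95.4. Over all cells 84.0% of Sst-expressing and 51.1% of matched cells had an *Fst* UMI, and the fitted log2 fold change over the 4 tumours other than MP was 1.59 ± 0.19 (SE).

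*Tenm3* separated the classes in the BP tumours but hardly elsewhere. It stood at 1660 against 115 CPM in BP replicate 1 and at 1170 against 88.5 in BP replicate 2. In MP it was at 920 against 903, in MP+BP at 812 against 699 and in PD+MP at 709 against 461. The levels in Sst-expressing cells of all tumours lay within 709 to 1660, whereas those in matched cells ran from 88.5 to 903, with the lowest values in the BP tumours. The fitted log2 fold change was 2.07 ± 0.60 (SE).

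*Lgr5* was at 1100 against 346 CPM in BP replicate 1, at 605 against 407 in BP replicate 2 and at 466 against 139 in MP. In MP+BP the levels were 499 and 477, and in PD+MP 265 and 290. The order was thus clear in both BP tumours. In MP it rested on few of the 12 cells. There 1 cell with 2 *Sst* UMIs, of 77210 UMIs in all, had 1330 CPM. The 9 cells of MP with 5 to 19 *Sst* UMIs had 119, below the 139 of matched cells. The fitted log2 fold change was 0.56 ± 0.25 (SE).

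*Trpm3* had no common direction. It stood at 168 against 242 CPM in BP replicate 1, at 233 against 397 in BP replicate 2 and at 93.8 against 115 in PD+MP. In MP+BP it was at 1430 against 495, although 62.5% of Sst-expressing and 61.0% of matched cells there had a *Trpm3* UMI, and in MP it was at 84.3 against 62.4. The fitted log2 fold change of 0.03 ± 0.35 (SE) averages these opposite values. All 4 markers were detected together in 207 of the 664 cells (31.2%) and in 127 of the matched cells (19.1%), and 9 Sst-expressing cells had none of them, so most Sst-expressing cells lacked at least 1 of the 4.

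**Figure D2:**
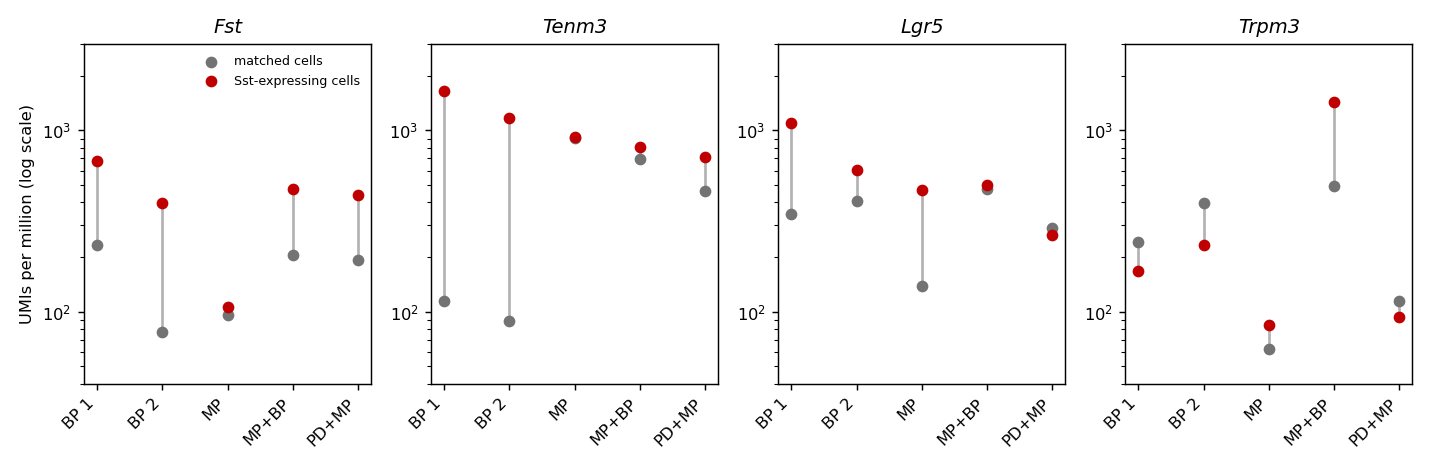
Summed levels of Fst, Tenm3, Lgr5 and Trpm3 in CPM (log axis) in Sst-expressing cells (red) and depth-matched Sst-negative cells (grey) of the 5 tumours, 1 point a class and tumour. Fst is higher in red throughout, Tenm3 parts widely in both BP tumours (1660 against 115, 1170 against 88.5), and Trpm3 is higher in red in MP+BP (1430 against 495) and lower in both BP tumours.

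The markers had no common order with the amount of *Sst*. In BP replicate 1, *Lgr5* was at 164 CPM in the 12 cells with 2 to 4 *Sst* UMIs, at 725 in the 8 cells with 5 to 19 and at 1820 in the 15 with 20 or more. In BP replicate 2 the corresponding levels were 436, 502 and 741 in 51, 111 and 139 cells. In MP+BP they were 480, 514 and 500 in 69, 103 and 100 cells. In PD+MP they were 148, 359 and 274 in 18, 19 and 7 cells, and in MP *Lgr5* was at 1110 in 3 cells with 2 to 4 *Sst* UMIs and at 119 in 9 with 5 to 19. The values increased from class to class in both BP tumours and in none of the others. *Trpm3* in BP replicate 1 was at 430, 103 and 78.8 over the 3 classes. *Trpm3* in MP+BP was at 1160, 1010 and 1980 over the same 3 classes, and *Fst* there at 339, 335 and 681. Cells of a class share a library, so these levels are a description.

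Sst-expressing cells had more Sst-expressing neighbours than matched cells had in the 4 tumours other than MP. *Lgr5*, *Trpm3*, *Tenm3* and *Fst* were not removed from the genes used for this. In a space of 30 principal components built within each tumour without *Sst*, *EGFP*, the gate genes and sex-linked, mitochondrial, ribosomal and haemoglobin genes, the 20 nearest neighbours of an Sst-expressing cell of BP replicate 2 were Sst-expressing in 56.8% of cases, against 1.88% around matched cells. The shares were 18.7% against 0.429% in BP replicate 1, 13.8% against 2.16% in PD+MP and 11.9% against 3.09% in MP+BP. In MP, where 12 cells lay among 5215, both were 0. The mean difference over the 4 tumours other than MP was 23.4 percentage points (SD 21.4), higher in 4 of 4. An exact two-sided sign-flip permutation test over tumours gave p = 0.125, the smallest p that 4 tumours allow.

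Clusters of gate cells in the same space gave a like picture. In BP replicate 1, 30 of 35 Sst-expressing cells fell into 1 cluster of 187 cells that held 1 of 35 matched cells. In BP replicate 2, 262 of 301 fell into 1 cluster of 597 cells, of which they made up 43.9%, and in PD+MP 33 of 44 fell into 1 of 253 cells. In MP+BP the cells were spread over all 13 clusters, and the fullest held 84 of 272. Most Sst-expressing cells thus shared 1 cluster in both BP tumours and in PD+MP, and did not in MP+BP. Most cells of each such cluster had fewer than 2 *Sst* UMIs.

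**Figure D3:**
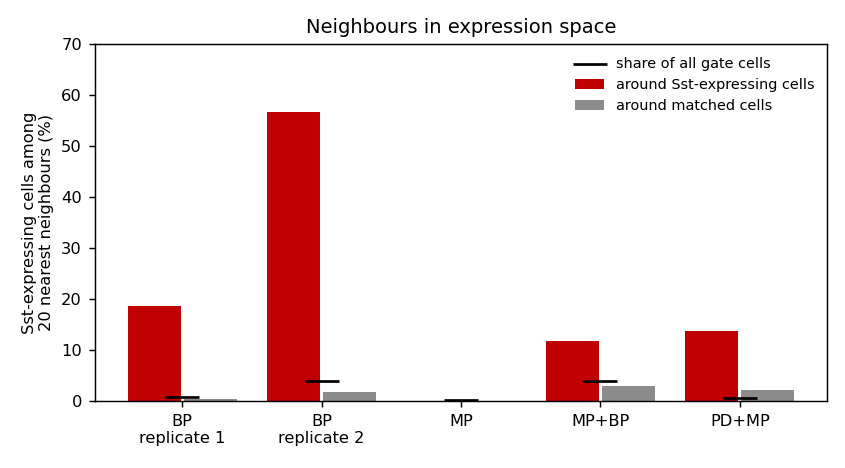
Mean percent of Sst-expressing cells among the 20 nearest neighbours in expression space of Sst-expressing cells (red) and of matched cells (grey) in each tumour; the black dash is their share among all gate cells. The red bar is at 56.8% in BP replicate 2 and at 11.9 to 18.7% in BP replicate 1, MP+BP and PD+MP, and both bars are 0 in MP.

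Gene expression was then compared across all genes, in UMI sums of Sst-expressing and matched cells paired by tumour (edgeR's quasi-likelihood test with a Benjamini-Hochberg adjusted p, threshold 0.05, tumour as a block). Adjusted p-values below come from this test, and the error after ± is its SE. MP had fewer than 20 pairs and was left out of the fit, which rested on 652 pairs of 4 tumours. Of 12950 genes tested, 163 were higher in Sst-expressing cells (1.26%) and 93 were lower (0.718%), and over all of them the log2 fold changes had a median of -0.01. Of these 256 genes, 232 had the same direction in all 4 tumours. *Sst* and the gate genes were left out of the counts. The 4 proposed markers were not, so a call of any of them is included, and their p-values are not reported. The calls depended on single tumours. Without BP replicate 2 none of 9326 genes passed (smallest adjusted p = 0.0721, 807 at an unadjusted p under 0.05), without BP replicate 1 33 did, and without MP+BP 842 did. DESeq2 called 365 genes.

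The 10 largest rises were those of *Cartpt*, *Tagln*, *Col1a2*, *Nkd2*, *Col6a6*, *Col3a1*, *Mgp*, *Adgrl3*, *Tbx18* and *Penk*. *Col3a1*, a fibrillar collagen, was at 1650 against 3.16 CPM in BP replicate 1, 843 against 53.6 in BP replicate 2, 62.3 against 0 in MP, 351 against 151 in MP+BP and 973 against 85.5 in PD+MP (log2 fold change 3.65 ± 0.72, adjusted p = 0.0372). *Col1a2*, the partner chain of type I collagen, was at 82.2 against 1.58, 138 against 1.13, 7.33 against 0, 62.9 against 15.4 and 8.34 against 4.17 in the same order (3.70 ± 0.67, adjusted p = 0.0285). *Mgp*, matrix Gla protein, was highest in PD+MP with 8160 against 319 CPM (3.58 ± 0.62, adjusted p = 0.0242). *Col3a1* was higher in Sst-expressing cells within each of the 5 tumours, although the level of 62.3 in MP lay below the 151 of matched cells in MP+BP. *Tagln*, an actin-binding protein of contractile cells, stood at 400 against 4.74 in BP replicate 1 but at 10.0 against 4.65 in MP+BP (3.77 ± 0.61, adjusted p = 0.0232). *Col6a6* and *Tbx18*, a type VI collagen chain and a T-box factor of mesenchyme, were found in 6.63% and 7.23% of Sst-expressing cells and in 0.602% and 1.05% of matched cells. *Nkd2*, a Wnt feedback inhibitor, was at 96.4 against 0 in BP replicate 1 and 40.0 against 1.69 in BP replicate 2 (3.69 ± 0.58, adjusted p = 0.0204). Of 51 named genes called, 43 could be tested without BP replicate 2, and 0 of these were called. *Tagln*, *Nkd2* and *Col6a6* were among those that could not.

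*Adgrl3*, a latrophilin and so a receptor for teneurins, rose beside *Tenm3*. It was at 495 against 19 CPM in BP replicate 1, 378 against 13.5 in BP replicate 2, 80.7 against 55.1 in MP, 262 against 79.6 in MP+BP and 327 against 33.4 in PD+MP (3.46 ± 0.46, adjusted p = 0.0114). A UMI was present in 61.4% of Sst-expressing and 17.5% of matched cells. Of 9 other teneurin, latrophilin and FLRT genes tested, *Adgrl3* was the one that rose and *Tenm2* the one that fell, from 323 to 98.1 in BP replicate 2 and from 368 to 160 in MP+BP (-1.40 ± 0.20, adjusted p = 0.0133). *Tenm2* had the opposite order in PD+MP, at 8.34 against 6.25, and in MP, at 458 against 253. Over all genes 1.26% were higher and 0.718% lower. Without BP replicate 2 neither *Adgrl3* nor *Tenm2* was called.

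Some other neuropeptide genes rose with *Sst*. Of 37 listed, 8 had enough counts to test. Of these, 4 were higher and 0 lower, against 1.26% and 0.718% of all genes, and the median log2 fold change of the 8 was 1.38. Within the sums compared, which hold members and matched cells only, *Cartpt* and *Tac1* had most of their UMIs in Sst-expressing cells. Scarce genes reach the count filter more readily when higher there. The share of calls and the median may be raised by this and are no test of the list. *Penk*, the enkephalin precursor, was at 161 against 1.58 CPM in BP replicate 1, 62.3 against 6.77 in BP replicate 2, 103 against 0 in MP, 45.1 against 9.80 in MP+BP and 288 against 10.4 in PD+MP (3.41 ± 0.40, adjusted p = 0.00895). In MP all 28 *Penk* UMIs came from 8.33% of the 12 Sst-expressing cells. *Cartpt*, precursor of the peptide CART, was at 44.3 against 0 in BP replicate 1, 66.0 against 0 in BP replicate 2 and 42.4 against 7.10 in MP+BP (4.15 ± 0.69, adjusted p = 0.0242), yet 8.58% of Sst-expressing cells had a UMI of it. *Tac1*, the substance P precursor, was in 4.37% of the cells, at 45.9 against 7.33 in BP replicate 2 and 30.6 against 0.980 in MP+BP (3.40 ± 0.47, adjusted p = 0.0149), and was 0 in PD+MP in both classes. *Pthlh*, parathyroid hormone-related protein, was the most widespread, in 48.9% of the cells (2.41 ± 0.48, adjusted p = 0.0387). *Cort*, the close relative of *Sst*, was near absent, in 0.602% and 0.301% of cells. Without BP replicate 2, *Penk*, *Cartpt* and *Pthlh* were not called and *Tac1* had too few counts to be tested. *Cartpt* was also not called by DESeq2 (adjusted p = 0.0713), without BP replicate 1 (edgeR adjusted p = 0.0724) or with members at 1 or more *Sst* UMIs (0.124). Its log2 fold change was 9.45 without MP+BP and depended on the controls. It was 2.73 with 2 matched cells a member, 1.98 with matching on totals without *Sst* and 2.04 against all Sst-negative gate cells. For *Tac1* these values were 3.54, 4.67 and 1.86.

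The link to *Penk* was partial cell by cell. Of 511 gate cells with at least 2 *Penk* UMIs, 87 were Sst-expressing, which was 17% of the *Penk* cells and 13.1% of the Sst-expressing cells. Over all 30700 gate cells, 2.16% were Sst-expressing. By tumour, 34.3% of Sst-expressing cells had at least 2 *Penk* UMIs in BP replicate 1 and 27.3% did in PD+MP. The share was 13% in BP replicate 2, 8.46% in MP+BP and 8.33% among the 12 cells of MP.

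The receptors of somatostatin were scarcely detected. *Sstr2* was the one receptor gene with enough counts to test, at 11.1 against 4.74 CPM in BP replicate 1, 7.33 against 3.67 in BP replicate 2 and 1.96 against 3.67 in MP+BP (0.36 ± 0.56, adjusted p = 0.811). It had a UMI in 5.27% of Sst-expressing and 4.22% of matched cells. *Sstr1*, *Sstr3*, *Sstr4* and *Sstr5* were found in at most 0.151% of cells of either class. Of 10 genes for peptide processing and dense-core vesicles tested, 0 passed the test, and the median log2 fold change was 0.00. With 1.26% of all genes higher and 0.718% lower, 0 of 10 is no result about the list. *Pam*, which amidates peptides, was at 63.1 against 81.8 in BP replicate 2 and 81.1 against 87.4 in MP+BP (-0.01 ± 0.18, adjusted p = 0.988), and *Ptprn2*, a vesicle membrane protein, at 36.6 against 43.7 and 40.9 against 84.2 (-0.46 ± 0.22, adjusted p = 0.333).

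Genes of the cell types that normally make somatostatin were tested as well. Over all genes 1.26% were higher and 0.718% lower, so 0 or 1 call in lists this short is no result about them. Of 8 delta cell and endocrine genes tested, 0 passed, and their median log2 fold change was -0.03. Of 16 genes of *Sst* interneurons, 1 was higher. This was *Dlx2*, a homeobox factor, at 36.7 against 17.9 CPM in MP+BP (1.54 ± 0.29, adjusted p = 0.0321). Of 21 genes of the cAMP and CREB response, 1 was higher, the nuclear receptor *Nr4a2*. It was at 718 against 111 in BP replicate 1, 276 against 64.3 in BP replicate 2, 205 against 47.7 in MP, 627 against 207 in MP+BP and 100 against 81.3 in PD+MP (1.79 ± 0.28, adjusted p = 0.0207). Neither *Dlx2* nor *Nr4a2* was called without BP replicate 1 or without BP replicate 2.

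Of the FGF and BMP genes tested, 6 were higher and 1 was lower. *Fgfr1*, an FGF receptor, had the second smallest adjusted p among named genes and was at 545 against 93.2 CPM in BP replicate 1, 530 against 133 in BP replicate 2, 202 against 150 in MP, 792 against 285 in MP+BP and 386 against 119 in PD+MP (1.92 ± 0.18, adjusted p = 0.00442). *Fgf10*, a ligand made by limb mesenchyme, rose as well (1.09 ± 0.19, adjusted p = 0.0242), while *Fgfr3*, another receptor, fell from 71.1 to 22.1 in BP replicate 1 and from 27.9 to 13 in MP+BP (-1.27 ± 0.23, adjusted p = 0.0290). These 3 were all that passed of 13 FGF genes tested, while 1.26% of all genes were higher and 0.718% lower. Of 15 BMP genes, 4 were higher and 0 lower, against 1.26% and 0.718% of all genes, with a median of 0.52. They were the ligand *Bmp4* (1.08 ± 0.20, adjusted p = 0.0306), the receptor *Bmpr1b* (1.31 ± 0.25, adjusted p = 0.0321), the antagonist *Chrdl1* (1.20 ± 0.23, adjusted p = 0.0337) and the target *Id3* (1.08 ± 0.18, adjusted p = 0.0242). *Id3* was at 848 against 471 in BP replicate 2 and at 1440 against 1000 in MP+BP.

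Of 15 Wnt target genes, 3 were higher and 0 lower, against 1.26% and 0.718% of all genes, yet the median log2 fold change was -0.03. They were *Nkd2*, *Lef1*, a factor that binds β-catenin (1.09 ± 0.18, adjusted p = 0.0242), and *Axin2*, a feedback inhibitor (1.00 ± 0.18, adjusted p = 0.0285). *Lef1* stood at 356 against 159 CPM in BP replicate 2, 454 against 294 in MP+BP and 115 against 31.3 in PD+MP. Among 4 genes of the Lgr and R-spondin families apart from *Lgr5*, *Rspo3*, which codes for a ligand of Lgr5, rose from 14.9 to 43.7 in BP replicate 2 and from 31.1 to 108 in MP+BP (1.20 ± 0.25, adjusted p = 0.0414). Of 9 activin and follistatin genes other than *Fst*, 0 passed, and *Fstl1* was at 423 against 213 in BP replicate 2 and 372 against 406 in MP+BP (0.70 ± 0.19, adjusted p = 0.0968). None of the 6 Hedgehog and 11 Notch genes tested passed. Without BP replicate 2 these FGF, BMP, Wnt and R-spondin genes were not called, apart from *Nkd2*, which could not be tested there. Without BP replicate 1, *Fgfr1* alone among them was called.

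Mesenchymal genes were among those that rose. Of 13 tested, 4 were higher and 0 lower, against 1.26% and 0.718% of all genes, and 12 of 13 had a positive log2 fold change with a median of 1.14. Beside the 2 collagens these were the factors *Prrx1*, of limb mesenchyme (2.18 ± 0.47, adjusted p = 0.0468), and *Twist2* (2.25 ± 0.36, adjusted p = 0.0207). *Prrx1* was at 419 against 37.9 CPM in BP replicate 1, 558 against 43.4 in BP replicate 2, 110 against 125 in MP, 136 against 85.2 in MP+BP and 321 against 148 in PD+MP. The summed level of the 13 genes was 5170 against 828 in BP replicate 1, 5820 against 928 in BP replicate 2, 1430 against 1280 in MP, 2150 against 1680 in MP+BP and 3560 against 1680 in PD+MP, with the widest gaps in the BP tumours. Of 8 epithelial genes, 1 was higher, the keratin *Krt8*, at 43.8 against 2.94 in MP+BP and 4.17 against 8.34 in PD+MP (3.36 ± 0.57, adjusted p = 0.0242), with a UMI in 7.23% of the cells. Of 16 limb patterning genes, 15 had positive log2 fold changes (median 0.43), 0 were called higher, and 1, the homeobox gene *En1* of ventral limb ectoderm, was lower, at 71.0 against 283 in BP replicate 2 and near 0 in MP, MP+BP and PD+MP. Beside the shares of all genes, 1 call in the epithelial list and 1 in the limb list are no result about these lists. Without BP replicate 2, *Col1a2*, *Col3a1*, *Prrx1* and *En1* were not called, and *Krt8* and *Twist2* could not be tested.

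**Figure D4:**
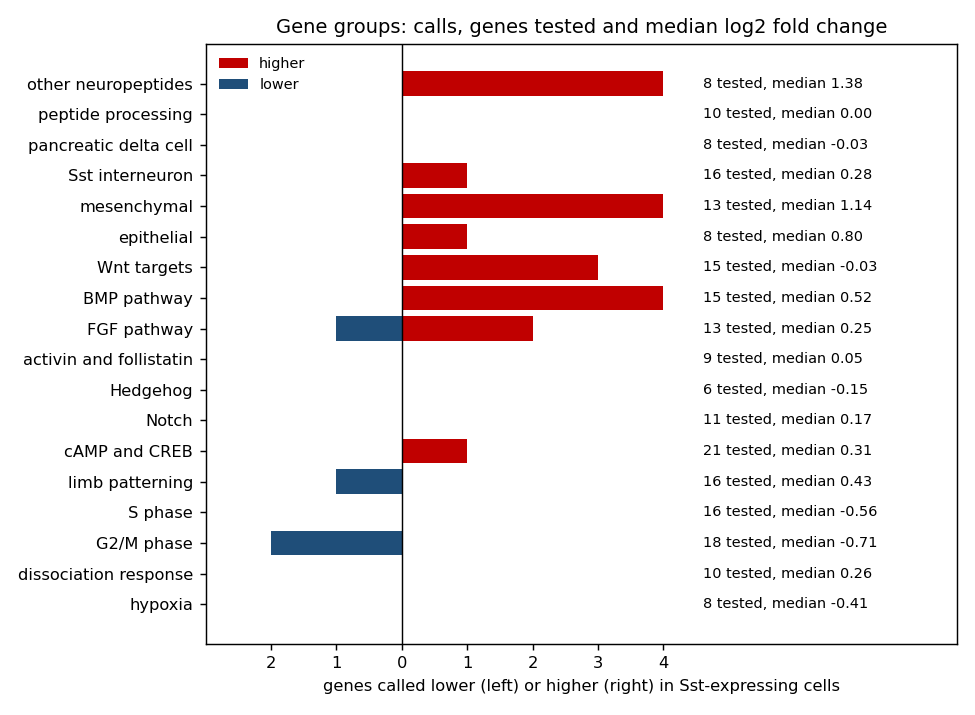
Number of genes called higher (red, right) or lower (blue, left) in Sst-expressing cells for 18 gene lists, with the number tested and the median log2 fold change printed beside each. Other neuropeptides (4 of 8), mesenchymal (4 of 13) and BMP genes (4 of 15) hold the most calls, and the S and G2/M phase lists have medians of -0.56 and -0.71. Over all genes tested, 1.26% were called higher and 0.718% lower. Scarce genes, such as some neuropeptides, reach the count filter more readily when higher in these cells, so the counts are no test of a list.

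The genes that fell most were *Ecrg4*, which encodes a secreted peptide precursor, and *Opcml*, a GPI-anchored adhesion protein of neurons. *Ecrg4* was at 0 against 1.58 CPM in BP replicate 1, 58.1 against 526 in BP replicate 2, 0 against 29.4 in MP, 24.7 against 174 in MP+BP and 8.34 against 10.4 in PD+MP (-2.88 ± 0.29, adjusted p = 0.00479). *Opcml* was at 39.5 against 136, 85.7 against 403, 279 against 77.1, 9.06 against 49.2 and 29.2 against 133 in the same order (-2.18 ± 0.16, adjusted p = 0.00119). The fall of *Opcml* was seen in 4 of 5 tumours and the 12 cells of MP had the opposite order, as they also had for *Sorcs1*, *Igfbpl1*, *Shc3* and *Mt3*. *Sorcs1*, a sorting receptor, was at 56.9 against 240 in BP replicate 1 and 101 against 342 in MP+BP (-1.67 ± 0.20, adjusted p = 0.00895). *Gpc6*, a glypican of the family of the gate gene *Gpc3*, was lower in all 5 tumours, with 32.1 against 143 in MP+BP and 354 against 627 in PD+MP (-1.51 ± 0.22, adjusted p = 0.0133). *Vcam1*, an adhesion receptor for leukocytes, was at 21.3 against 86.9 in MP+BP and 16.7 against 18.8 in PD+MP (-1.60 ± 0.24, adjusted p = 0.0154). The remaining 5 of the 10 largest falls were *Cttnbp2*, *Mt3*, *Shc3*, *A630012P03Rik* and *Igfbpl1*, with log2 fold changes from -1.59 to -1.42. Without BP replicate 2 none of them was called, and *Mt3* and *A630012P03Rik* could not be tested.

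**Figure D5:**
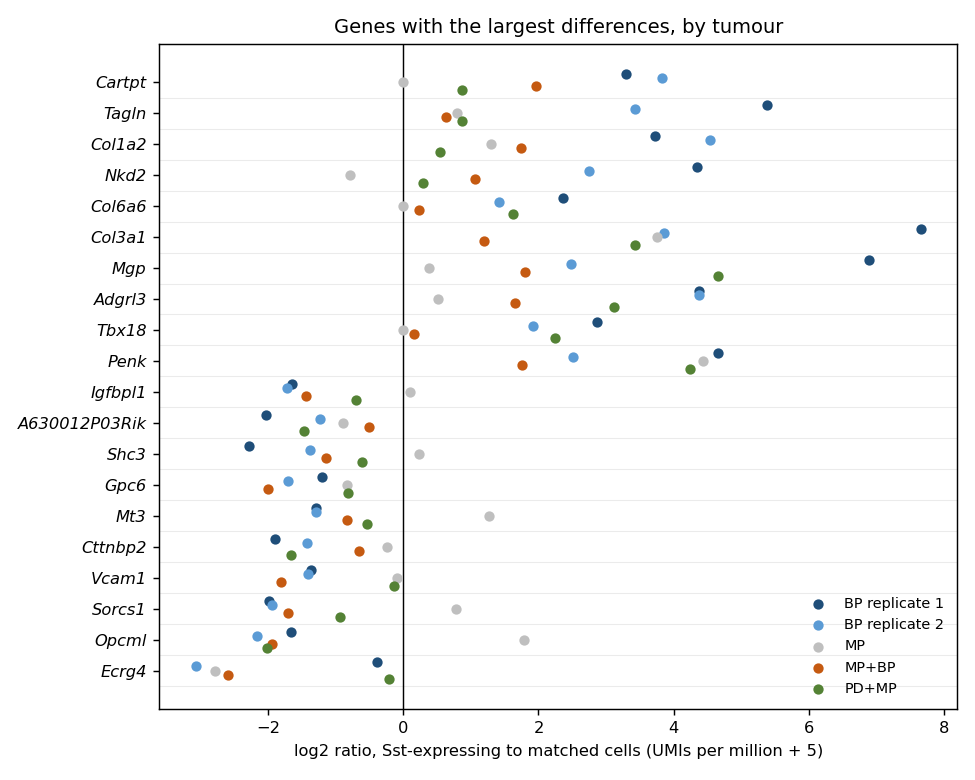
Log2 ratio of Sst-expressing to matched cells in each tumour (CPM plus 5 in both classes) for the 10 genes with the largest rises and the 10 with the largest falls of the same direction in the 4 tumours fitted. Points of the BP tumours lie farthest from 0 for most rising genes, and the 12 cells of MP (grey) fall on the other side of 0 for Nkd2, Opcml, Sorcs1, Mt3, Shc3 and Igfbpl1.

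Cell cycle genes were lower or did not pass. Of 18 G2/M genes, 2 were lower and 0 higher, against 0.718% and 1.26% of all genes. All 18 had a negative log2 fold change, and the median was -0.71. The 2 were *Cenpf*, a kinetochore protein, at 59.5 against 149 CPM in BP replicate 2 and 56.3 against 125 in MP+BP (-1.06 ± 0.19, adjusted p = 0.0297), and the cyclin *Ccnb1* (-1.05 ± 0.22, adjusted p = 0.0468). Of 16 S phase genes 0 passed, with 16 of 16 negative and a median of -0.56, and *Pcna* was at 100 against 102 in BP replicate 2 and 112 against 156 in MP+BP (adjusted p = 0.480). Summed over the G2/M list, Sst-expressing cells had 310 against 351 in BP replicate 1, 567 against 885 in BP replicate 2, 759 against 1620 in MP, 518 against 1360 in MP+BP and 1110 against 967 in PD+MP. Genes of the dissociation response and of hypoxia had 0 calls among 10 and 8. *Ccnb1* was called in 0 of the 4 fits that left out a tumour, and was not called by DESeq2 (adjusted p = 0.104) or with library totals (edgeR adjusted p = 0.0554). *Cenpf* was not called without BP replicate 1 (adjusted p = 0.111) or BP replicate 2 (0.281).

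The study sorts genes by their expression in mesenchymal cells of origin and in SyS cells, and 2 of its categories were taken from its tables, those activated in sarcomagenesis (SAT) and those maintained (MAT). By its description they were defined on other tumours of the *hSS2* allele. Of 148 SAT genes tested, 11 were higher (7.43%) and 6 lower (4.05%), against 1.26% and 0.718% of all genes, with a median of 0.05. The higher ones included *Lef1*, *Krt8*, *Cartpt* and *Cbln4*. The lower ones included *Sez6*, a neuronal membrane protein, at 161 against 509 CPM in BP replicate 2 (-1.26 ± 0.19, adjusted p = 0.0190), *Rgs8*, a regulator of G protein signalling (-1.56 ± 0.24, adjusted p = 0.0193), and *Lrp2*, an endocytic receptor (-1.40 ± 0.22, adjusted p = 0.0221). Of 331 MAT genes tested, 2 were higher, *Adgrl3* and the phosphodiesterase *Pde4a*, and 2 lower, *Ctnnd2* and *Blnk*, with a median of -0.02. These shares (0.604% each) were near those of all genes and are no result about the set. Of the genes named from either set, none that could be tested without BP replicate 2 was called.

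Markers of other cell types were measured in the same sums. The 8 fibroblast markers summed to 1950 against 155 CPM in BP replicate 1, 3310 against 162 in BP replicate 2, 363 against 143 in MP, 801 against 592 in MP+BP and 923 against 219 in PD+MP. This sum was mostly *Col1a1*, a gene also in the mesenchymal list, at 1800 against 49.0 and 3200 against 66.8 in the BP tumours (3.25 ± 0.81, adjusted p = 0.0726). The sum was higher in Sst-expressing cells of 5 of 5 tumours, and *Dpt* and *Mfap5* of the list were at 0 in them. The 3 fibroblast markers with enough counts to test all had positive log2 fold changes (median 1.19), and 0 passed. The sum of the 8 endothelial markers ranged from 121 to 542 in Sst-expressing cells and from 114 to 275 in matched cells. It was higher in Sst-expressing cells of 5 of 5 tumours, and *Flt1*, a VEGF receptor, rose (1.75 ± 0.35, adjusted p = 0.0379). The 8 mural markers ranged from 25.7 to 598 against 22.9 to 237, led by *Tagln*, and their sum was higher in 4 of 5 tumours. The 10 macrophage markers ranged from 14.7 to 99.6 against 18.4 to 215, and their sum was higher in 2 of 5. The 5 chondrocyte markers ranged from 427 to 928 against 342 to 778, with *Col9a1* at 0 in members, and *Sox9* rose (0.99 ± 0.17, adjusted p = 0.0242). T and NK cell, neutrophil, muscle, Schwann cell, erythrocyte and mast cell lists summed to at most 47.8 in Sst-expressing cells. *Cd3e*, *Cd3d*, *Cd2*, *Retnlg*, *Tnnt3* and *Ms4a2* were at 0 in them, whereas *Trac*, of the T and NK cell list, had a UMI in 9.04% of Sst-expressing and 2.56% of matched cells, and was at 33.1 against 14.4 in MP+BP (1.47 ± 0.45, adjusted p = 0.136). *Pax7*, of the muscle list, was at 42.7 against 4.74 in BP replicate 1 and 14.6 against 22.9 in PD+MP (1.14 ± 0.37, adjusted p = 0.147). The part of the fibroblast, mural and endothelial markers in the rises of collagen and contractile genes was not tested.

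Doublet scores moved with the comparison in the larger tumours. The highest Scrublet scores, up to the expected share, marked 15.3% of Sst-expressing and 5.32% of matched cells in BP replicate 2 and 11.4% against 6.62% in MP+BP. In the other tumours the values were 2.86% against 8.57%, 8.33% against 16.7% and 6.82% against 9.09%. With these cells removed 247 genes were called, 211 of them among the 256 above.

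A narrower comparator shortened the list. When each Sst-expressing cell was paired with an Sst-negative cell of its own expression cluster, an alternative added after the data had been seen, 3 of 12850 genes passed (0.0233%). *Adgrl3* (0.90 ± 0.12, adjusted p = 0.0161) and *Egfl6*, a secreted matrix protein (1.09 ± 0.16, adjusted p = 0.0233), were higher, and *Ecrg4* was lower (-2.16 ± 0.28, adjusted p = 0.0161). Of the 51 named genes called in the wider comparison, 44 had the same direction, and their median absolute log2 fold change went from 1.56 to 0.35. *Cartpt*, *Col6a6*, *Col3a1*, *Mgp*, *Dlx2*, *Nr4a2* and *Cbln4* had the opposite sign there. The clusters were built from the same genes, so the comparison holds back differences that members share with their cluster. At an unadjusted p under 0.05 it had 586 genes.

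Whether the differences depended on a biphasic label was tested as an interaction of class and label in the same 4 tumours, 3 of which carried BP in the label and 1 did not. None of 13966 genes passed with edgeR (0%, smallest adjusted p = 0.219, 763 at an unadjusted p under 0.05), and DESeq2 called 1. With 1 tumour on a side the test is weak and does not show that the differences were alike.

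Over the series, libraries held 8931 to 11565 cells and 89996321 to 118649103 UMIs. Of all barcodes, 229 occurred in 2 libraries and 2 in 3.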

How the data were processed

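Single-cell suspensions of 5 *hSS2* tumours were sequenced with 3′ v3.1 chemistry. The authors made the deposited gene by cell UMI count matrices with Cell Ranger 7.2.0, and the counts are raw and filtered to called cells. The submitters' notes name the mm10 build. Members, markers and gene lists were chosen with earlier results of these data known.

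UMIs of Sst-expressing cells and of matched Sst-negative cells were summed per tumour and tested with edgeR 4.0.16 (TMM, quasi-likelihood, tumour as block, Benjamini-Hochberg) in R 4.3.3. Cells were not replicates, so n is the number of tumours. All 5 tumours had been planned for the fit, but MP had 12 pairs, under the minimum of 20, and 4 were fitted. Genes named were the 10 largest changes in each direction, called, with the same sign in all fitted tumours and detected in at least 5% of the higher class, and in each list the up to 4 called genes with the smallest adjusted p, or, where none was called, the 2 with the highest mean level. The markers, the receptors and *Cort* were named throughout. Other genes named, such as gate genes, *EGFP*, *Egfl6* and the 5 with a CRE, were chosen after their values were seen. Some genes that this rule names are not reported here. Clusters and neighbours used scanpy 1.11.5. Doublets were kept and removed in an alternative by Scrublet score. DESeq2 1.42.0, other filters, thresholds, gates and controls, and leaving out each tumour were alternatives. Scripts were tested on simulated data. Intervals are exact (Clopper-Pearson, 95%) and, like the limit for 0 cells (3 counts), cover counting error only.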

Additional observations from a re-analysis of the deposited data

Results flagged for a closer look

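*Lgr5* had a log2 ratio of Sst-expressing to matched cells of -0.13 in PD+MP, whereas both BP tumours had more *Lgr5* in Sst-expressing cells. *Trpm3* had a log2 ratio of 1.531 in MP+BP, whereas both BP tumours had less *Trpm3* in Sst-expressing cells. Each is a contrast of 1 tumour with 2, and the differences between labels were not tested.

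In BP replicate 2, 94 cells with at least 2 *Sst* UMIs lay outside the SyS gate because they had fewer than 3 of its 8 genes. They held 1847 *Sst* UMIs at a median depth of 5428.5 UMIs, and had 40.0 *EGFP* CPM (counts per 1000000 UMIs), against 0.261 in immune cells of the same tumour. No label had 4 or more tumours, so single tumours were not screened for standing apart from their group.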

How the results depend on the processing

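The 256 genes called moved to 1196 with no filter except 1 count, 168 with at least 10 counts in every sum, 157 with at least 1 *Sst* UMI, 871 against all Sst-negative gate cells and 3 against controls of the same cluster, the last chosen after the data had been seen. Leaving out 1 tumour gave 0 (BP replicate 2) to 842 (MP+BP) calls. The tumour was the replicate block, and with no block 0 genes were called (980 at an unadjusted p under 0.05). The tumours of different labels share no pairing beyond this block.

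The interaction with a biphasic label gave 79 calls with no filter, 1 with DESeq2 and 1 with all 5 tumours, the last also added after the data had been seen. Without 1 tumour the log2 fold changes ranged from 0.201 to 0.747 for *Lgr5*, -0.565 to 0.386 for *Trpm3*, 1.441 to 2.799 for *Tenm3* and 1.348 to 1.75 for *Fst*.

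With at least 1 *Sst* UMI the shares were 1.286% in BP replicate 1, 6.03% in BP replicate 2, 6.366% in MP+BP and 1.046% in PD+MP, and with at least 5 they were 0.5476%, 3.249%, 2.944% and 0.3884%. Thinning gave 3.348% in BP replicate 2, 3.0% in MP+BP and 0.4747% in PD+MP, and the stricter gate gave 2.705% in BP replicate 2.

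The sign turned against controls of the same cluster for *Cartpt* (-1.792), *Col6a6* (-0.823), *Col3a1* (-0.113), *Mgp* (-0.103), *Dlx2* (-0.042), *Nr4a2* (-0.182) and *Cbln4* (-0.067), and against all Sst-negative cells for *Hbb-bs* (-2.009). The causes were not tested. Depth limits scarce genes such as the somatostatin receptors, and 4 tumours limit every test.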
